A study of Homo sapiens with 6 samples.

Results

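S100 proteins and galectins were followed in RNA-seq data of the breast cancer cell line MDA-MB-231 expressing either a control shRNA or Smyca shRNA #1, which targets the nuclear lncRNA Smyca. The set was given by name and holds 10 genes, 7 of the S100 family (S100A2, S100A4, S100A6, S100A11, S100A13, S100A14 and S100P) and 3 galectins (LGALS1, LGALS3 and LGALS8), out of 58302 Ensembl genes in the deposited count data. Each of the 10 symbols matched 1 identifier, and all 10 genes passed the filter on low counts, which 15075 genes passed in all. Each group had 3 libraries, which the study calls biological repeats. Both groups carried an shRNA, the knockdown rested on a single Smyca shRNA in a single line, and no untransduced cells were among the libraries.

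S100 proteins are small calcium-binding proteins built from a pair of EF hands, and most of them work as dimers that change shape when calcium rises and then grip a partner protein. Inside the cell they act on annexins, myosin and transcription factors, and outside it several of them signal through the receptor RAGE. Galectins are lectins without a signal peptide that bind β-galactosides on glycoproteins, either at the cell surface or on damaged vesicles. In carcinoma cells both families have been followed as markers of migration, invasion and mesenchymal or epithelial state.

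The shRNA that separates the groups is shown first, since every difference below is a difference between cells with this hairpin and cells with the control hairpin. Its target of 21 bases, as the study's supplement lists it, is given in capitals throughout, which mark the stretch of Smyca RNA that the hairpin is directed at.

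Smyca shRNA #1 target: GCATAGATAGGTGGGTGAGTG

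In the transcripts of GENCODE release 44, the target matched MIR23AHG, the gene of Smyca, with 0 mismatches. The closest site in any transcript of the 10 genes had 7 mismatches (in LGALS1 and LGALS8), and the closest in S100A6 had 8. MIR23AHG was at 25.0, 19.5 and 22.0 normalized CPM (the gene's counts relative to its library's total, with totals scaled by TMM) in control replicates 1, 2 and 3 and at 10.5, 6.97 and 5.61 in the knockdown replicates. Each control library was above each knockdown library, with a log2 fold change, control over knockdown, of 1.53 (SE, the standard error, 0.26; edgeR adjusted p = 0.111). Exons of ZSWIM4, with 277 to 703 counts per library against 85 to 405 of MIR23AHG, overlap it on the opposite strand.

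Promoter stretches are printed for the member with the smallest p (S100A6), for its neighbour S100A4, for the one member with an AP-1 match (S100A2) and for the one S100 member outside chromosome 1 (S100P). Each is the run of 120 bases before a RefSeq transcription start, on the transcribed strand and 5′ to 3′, from build GRCh38.p14. Capitals mark matches to the motifs AP-1 (TGACTCA), SMAD (CAGAC), E-box (CACGTG), GC box (GGGCGG) and TATA box (TATAAA), each read on both strands. The stretches lie at chr1:153535992-153536111 (S100A6, minus strand), chr1:153545807-153545926 (S100A4, minus strand), chr1:153565845-153565964 (S100A2, minus strand) and chr4:6693758-6693877 (S100P, plus strand).
S100A6: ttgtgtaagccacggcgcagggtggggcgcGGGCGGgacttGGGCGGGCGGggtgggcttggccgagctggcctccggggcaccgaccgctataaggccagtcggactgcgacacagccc
S100A4: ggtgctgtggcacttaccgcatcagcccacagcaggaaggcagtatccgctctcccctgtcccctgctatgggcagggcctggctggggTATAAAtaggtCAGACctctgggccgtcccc
S100A2: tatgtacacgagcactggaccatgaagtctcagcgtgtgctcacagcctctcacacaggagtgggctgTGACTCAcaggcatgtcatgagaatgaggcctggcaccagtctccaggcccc
S100P: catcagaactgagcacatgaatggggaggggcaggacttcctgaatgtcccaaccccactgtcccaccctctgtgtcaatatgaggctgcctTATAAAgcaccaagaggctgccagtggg

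RefSeq promoter windows of 300 bases, 250 before and 50 after the start, were found for 9 of the 10 genes, 14 windows in all. LGALS1 had no entry. S100A6 held GC boxes starting at -90, -79 and -75 from the start, of which the last 2 overlap each other, and no TATAAA. S100A4 held TATAAA at -31 and CAGAC at -20, and S100P held TATAAA at -28 and CAGAC at 39, after the start. The printed S100A2 promoter held the AP-1 motif at -52, and the other window of S100A2 held CAGAC at -222, -200 and -148 and no AP-1 motif. Among the 14 windows, AP-1 was found in 1, CAGAC in 11, the E-box in 0, the GC box in 5 and TATAAA in 4. S100A2, S100A13 and LGALS8 had more than 1 window, and windows of S100A13 overlap each other, so the 14 are not independent. Each window of S100A13 and of LGALS8 held CAGAC. Of all 35116 RefSeq windows of this length, 4.95% held AP-1, 45.3% CAGAC, 7.26% the E-box, 45.0% the GC box and 11.5% TATAAA. These matches describe the letters only.

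Total counts lay between 14999307 and 16501085 per library. In control replicate 2 the FPKM column did not follow the count column: 2.23% of 15272 genes agreed within 1%, against 100% in each of the other 5 libraries. The whole reads that this column stands for (16759253 in all, here called FPKM-derived reads) correlated at r = 0.993 with the counts of control replicate 3 and at 0.952 with the counts of control replicate 2, across 15068 genes, which are not independent of each other. Results are given with the count column. For the S100 and galectin genes and their partners, they are also given with the FPKM-derived reads where these change them. The cell markers are given with the count column only, and were not compared with the FPKM-derived reads.

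The markers of the line went partly against its label. MDA-MB-231 is known as a mesenchymal, basal-like line, and 6 of the 8 mesenchymal markers were counted in each library. VIM (147.6 to 305 normalized CPM in the control, 71.2 to 129.7 in the knockdown) and ZEB1 (11.1 to 12.9 and 6.22 to 8.24) were higher in each control library, while MSN (341 to 767 over all libraries), CAV1 (27.9 to 101.0), AXL (18.1 to 51.1) and CD44 (9.31 to 37.2 normalized CPM) overlapped. However, TWIST1 was at 0 in every library and SPARC at up to 11 counts, while the epithelial and luminal genes EPCAM (236 to 336), CDH1 (71.5 to 300.1) and KRT8 (4249 to 7408 normalized CPM) were abundant. HNF4A (65.4 to 194.1 normalized CPM) and VIL1 (220.5 to 342.6 in the control and 422 to 500.6 in the knockdown, without overlap), which mark intestinal and hepatic epithelium, were also counted, while ALB, APOA1 and FABP1 had at most 4 counts. The summed level of the 8 mesenchymal markers was 585 to 1275 normalized CPM in the control and 639 to 973 in the knockdown, and MSN, with a log2 fold change of 0.043, made up most of it. The log2 fold changes of VIM, CAV1, CD44, ZEB1 and AXL were 1.09, 1.008, 0.94, 0.71 and 0.37 (edgeR adjusted p = 0.131, 0.218, 0.237, 0.149 and 0.585). The summed level of the 6 luminal markers was 5634 to 5930.0 normalized CPM in the control and 6219 to 8700.0 in the knockdown, without overlap. KRT8 alone made the separation (4249 to 4775 and 5083 to 7408). KRT18, GATA3 and TFF1 overlapped, with log2 fold changes, control over knockdown, of -0.051, 0.042 and 0.66, and ESR1 and FOXA1 reached at most 3 and 2 counts. The summed level of the 4 epithelial markers was 1487 to 2758 normalized CPM in the control and 1383 to 1778 in the knockdown. CLDN4 was the one among them whose groups did not overlap, at 207.9 to 265 in the control and 144.2 to 183.8 normalized CPM in the knockdown (log2 fold change 0.53, edgeR adjusted p = 0.148), while CDH1, EPCAM and KRT19 overlapped, at 0.72, 0.032 and 0.40. The level summed over the 4 leukocyte markers was at most 0.570 in any library, with PTPRC at 0. The part of these markers in the differences of S100 and galectin genes was not tested, and in bulk RNA fewer cells of a type and less RNA per cell cannot be told apart.

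S100A6 and LGALS1 had the smallest p of the 10 genes, with mean levels 1.83 and 2.17 times as high in the control as in the knockdown. Neither passed the threshold with edgeR. S100A4, LGALS3 and LGALS8 had log2 fold changes, control over knockdown, of -0.26, -0.031 and 0.14. By the study's criteria for a DEG (adjusted p under 0.05 with a control-to-knockdown ratio from 1.5 upwards or from 0.66 downwards), 0 of the 10 genes were called with edgeR's quasi-likelihood test, against 0.0265% of all genes tested. DESeq2's Wald test called 2 of them, S100A6 and LGALS1, against 6.38% of the 13315 genes with an adjusted p there. The same 2 genes were called by edgeR without the low-count filter (3.01% of all genes), and these and S100A14 without control replicate 3 (10.5% of all genes). An unadjusted p under 0.05 was reached by 2 of the 10 in edgeR, where 19.2% of all genes (2893) reached it. It was reached by 5 of the 10 without control replicate 3 (4575 over all genes) and by 4 without knockdown replicate 1 (2479 over all genes). The 3 control libraries were all above the 3 knockdown libraries in 1 of the 10 (12.4% of all genes), and all below in 0 of the 10 (12.5% of all genes). A ratio of 1.5 or more was found in 5 of the 10 (15.6% of all genes) and one of 0.66 or less in 0 (5.54% of all genes). Without control replicate 1, S100A2 and S100A14 fell below a ratio of 1.5, at log2 fold changes of 0.43 and 0.57, while S100A6, S100P and LGALS1 stayed above it. The median log2 fold change, control over knockdown, was 0.54 over the 10 genes and 0.036 over all genes tested.

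**Figure D1:**
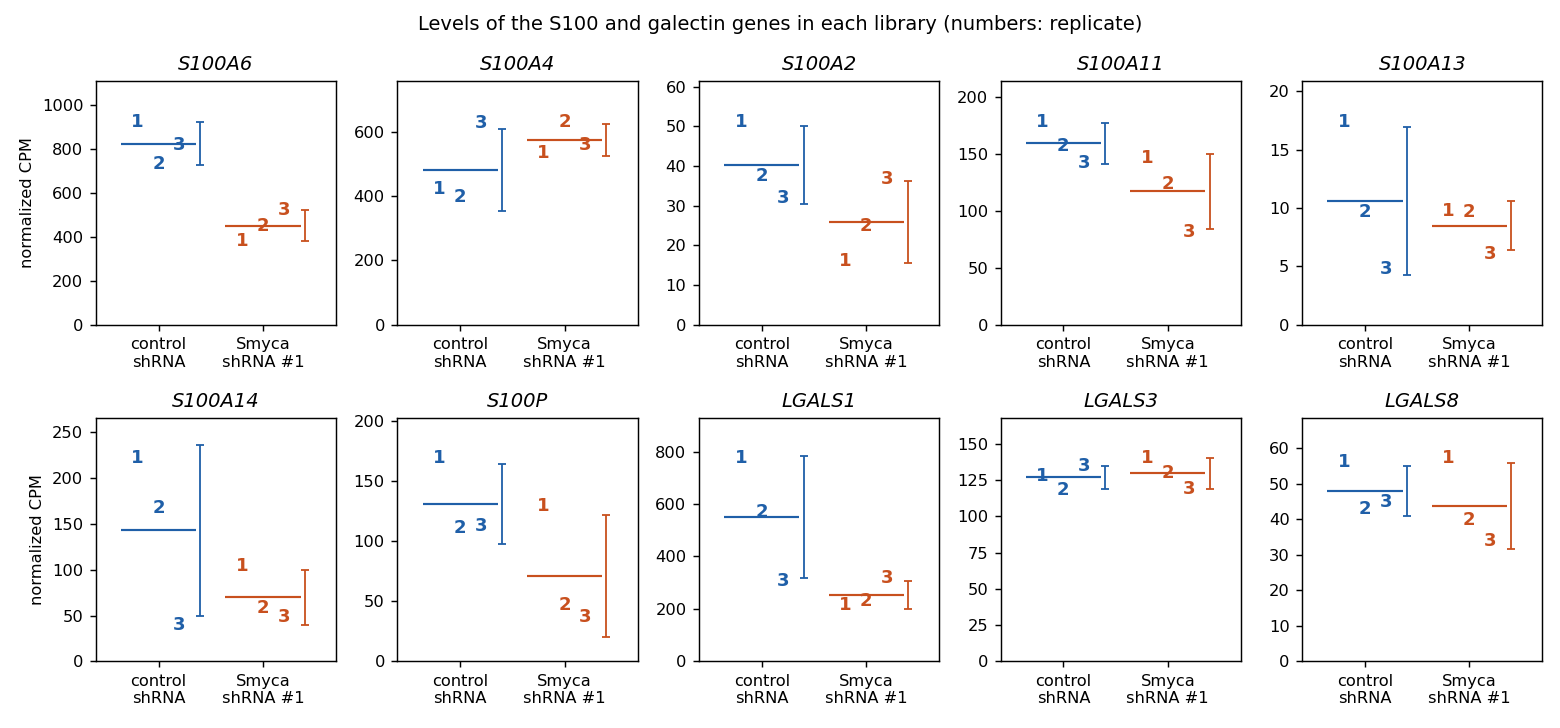
Normalized CPM (y axis, linear, starting at 0) of each of the 10 genes in the 3 control shRNA and 3 Smyca shRNA #1 libraries; each number is a library and gives its replicate, lines are means and bars SD. S100A6 is the gene whose groups are fully apart, from 731 upwards in the control and up to 520 in the knockdown, while control replicate 3 lies among the knockdown libraries for LGALS1 and below all of them for S100A14 and S100A13.

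S100A6, also called calcyclin, is a calcium sensor of dividing cells and had the highest level of the set per length in the control. It was at 923, 731 and 815 normalized CPM in control replicates 1 to 3 and at 379, 450 and 520 in knockdown replicates 1 to 3. The groups did not overlap. The means were 823 ± 96.1 and 449.8 ± 70.5 (SD, n = 3 each). The log2 fold change was 0.87 (SE 0.17, unadjusted p = 0.000732, adjusted p = 0.111, edgeR quasi-likelihood test with Benjamini-Hochberg adjustment). The two-sided exact permutation test gave p = 0.1, and no lower p is possible with 3 libraries in each group. S100A6 kept its sign in 13 of 13 alternatives, with a log2 fold change of 0.75 to 0.98, and was called in 3 of them. Its adjusted p ranged from 0.000875 (DESeq2) to 0.440 (without knockdown replicate 2), and was 0.0214 without control replicate 3. With the FPKM-derived reads of control replicate 2, the log2 fold change was 0.87 (edgeR adjusted p = 0.0820).

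S100A4, or metastasin, binds non-muscle myosin and is widely used as a marker of mesenchymal cells. Its levels were 422, 396 and 627 normalized CPM in the control and 534, 631.5 and 560.0 in the knockdown. Control replicate 3 was near the top of the knockdown libraries, and the groups overlapped. The log2 fold change was -0.26 (SE 0.20, edgeR adjusted p = 0.508), and it was -0.058 with the FPKM-derived reads of control replicate 2 and -0.50 without control replicate 3 (edgeR adjusted p = 0.885 and 0.0607, the widest values over 13 alternatives).

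Set against each other within a library, S100A6 and S100A4 separated the groups. There were 2.19, 1.85 and 1.30 S100A6 counts for each S100A4 count in the control and 0.710, 0.713 and 0.929 in the knockdown, so that S100A6 was the larger of the pair in each control library and the smaller in each knockdown library. The mean ratios were 1.78 ± 0.447 and 0.784 ± 0.125 (SD, n = 3 each; two-sided exact permutation test, p = 0.1). With its FPKM-derived reads, control replicate 2 was at 1.203 in place of 1.85, the lowest of the control libraries and still above each knockdown library (an alternative added after the data were seen). This ratio does not depend on the scaling between libraries. It was formed after the levels had been seen.

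**Figure D2:**
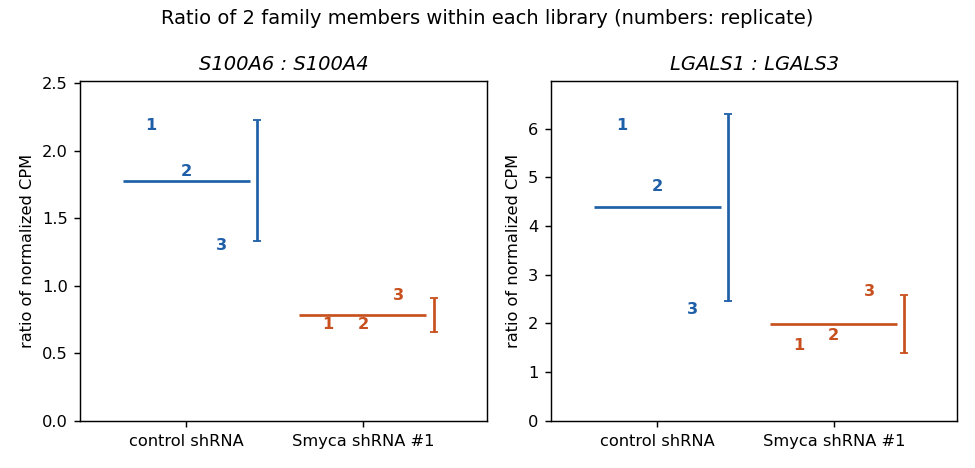
Ratio of the normalized CPM (y axis, starting at 0) of S100A6 to S100A4 and of LGALS1 to LGALS3 within each library; numbers give the replicate, lines are means and bars SD (n = 3 each). The S100A6 to S100A4 ratio is at 1.30 or above in each control library and below 0.93 in each knockdown library, while the LGALS1 to LGALS3 ratio of control replicate 3 (2.29) lies below that of knockdown replicate 3 (2.66).

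S100A2, an S100 protein of basal epithelium that can bind p53, was at 51.2, 37.5 and 32.1 normalized CPM in the control and at 16.2, 24.9 and 36.6 in the knockdown. Knockdown replicate 3 was above control replicate 3, so the groups overlapped. The log2 fold change was 0.64 (SE 0.30, edgeR adjusted p = 0.288), and it lay between 0.38 and 0.96 with each library left out in turn. Its printed promoter is the one with an AP-1 match.

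S100A11, which pairs with annexin A1, was at 178.5, 157.4 and 142.2 normalized CPM in the control and at 146.9, 123.7 and 81.9 in the knockdown. Only control replicate 3 and knockdown replicate 1 crossed. The log2 fold change was 0.44 (SE 0.22, edgeR adjusted p = 0.311), 0.23 without knockdown replicate 3 and 0.62 without knockdown replicate 1. With its FPKM-derived reads, control replicate 2 was at 138.5 normalized CPM and also crossed knockdown replicate 1, and the log2 fold change was 0.37 (edgeR adjusted p = 0.387, within 0.179 to 0.611 over 13 alternatives). GENCODE lists pseudogenes of S100A11, and how reads shared with them were counted is not given in the sources used here.

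S100A14 and S100P are both known from epithelia and carcinomas. S100A14 was at 221, 168 and 39.2 normalized CPM in the control and at 103.9, 57.7 and 48.3 in the knockdown. Control replicates 1 and 2 were above every knockdown library, but control replicate 3 was the lowest of the 6. Its log2 fold change was 1.03 (SE 0.55, edgeR adjusted p = 0.340). It was 1.47 without control replicate 3 (edgeR adjusted p = 0.0223) and 0.50 with the FPKM-derived reads of control replicate 2 (edgeR adjusted p = 0.697), where that library was at 41.5 in place of 168 normalized CPM. The adjusted p ranged from 0.0223 to 0.719 over 13 alternatives.

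For S100P, which binds ezrin and RAGE, the control was at 168.6, 110.5 and 112.8 normalized CPM and the knockdown at 128.8, 46.9 and 36.8. Here it was knockdown replicate 1 that lay among the control libraries. The log2 fold change was 0.88 (SE 0.43, edgeR adjusted p = 0.308), 1.64 without knockdown replicate 1 and 0.56 without knockdown replicate 3 (edgeR adjusted p = 0.208 and 0.489, within 0.0801 to 0.644 over 13 alternatives).

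S100A13, which helps to release FGF1 from cells, had the lowest level of the set. Its libraries were at 17.4, 9.66 and 4.74 normalized CPM in the control and at 9.78, 9.63 and 6.07 in the knockdown. The control libraries spanned the knockdown ones on both sides. The log2 fold change of 0.32 (SE 0.44, edgeR adjusted p = 0.718) became -0.23 without control replicate 1 (edgeR adjusted p = 0.843) and 0.10 with the FPKM-derived reads of control replicate 2 (edgeR adjusted p = 0.923, within 0.196 to 0.923 over 13 alternatives). S100A13 shares exonic bases with S100A1 on the opposite strand, which had 17 to 37 counts per library against 74 to 282 of S100A13.

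Among the galectins, LGALS1 encodes galectin-1, a homodimer that cross-links surface glycoproteins and is abundant in mesenchymal cells. It was at 774, 568 and 307.5 normalized CPM in the control and at 215.6, 228.9 and 316 in the knockdown. Control replicates 1 and 2 were above every knockdown library, and control replicate 3 was just below knockdown replicate 3. The means of 549.8 ± 234 and 254 ± 54.7 (SD, n = 3 each) gave a log2 fold change of 1.12 (SE 0.32, unadjusted p = 0.00678, edgeR adjusted p = 0.136). In the exact permutation test p was 0.2 (two-sided). The sign was kept in 13 of 13 alternatives, from 0.79 to 1.40, and LGALS1 was called in 3 of them (DESeq2, no low-count filter, and without control replicate 3). Its adjusted p was 0.00403 to 0.443 over the alternatives and 0.00805 without control replicate 3. With the FPKM-derived reads, control replicate 2 was at 328.5 normalized CPM and the log2 fold change 0.87 (edgeR adjusted p = 0.223).

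LGALS3, whose product galectin-3 carries a long N-terminal tail and binds laminin and lysosomal glycoproteins, was at 127.6, 118.3 and 134.5 normalized CPM in the control and at 139.9, 129.9 and 118.8 in the knockdown. Its coefficient of variation was the lowest of the 10 genes in both groups, 6.44% and 8.12%, and its log2 fold change was -0.031 (SE 0.14, edgeR adjusted p = 0.919). Its sign turned under 4 of the 13 alternatives, including total counts as the only scaling. LGALS8, encoding galectin-8 with its tandem lectin domains, was at 56.0, 43.0 and 44.8 in the control and at 57.1, 39.9 and 33.8 normalized CPM in the knockdown, a log2 fold change of 0.14 (SE 0.22, edgeR adjusted p = 0.758). Exons of HEATR1 on the opposite strand overlap LGALS8, with 991 to 1753 counts per library against 512 to 908 of LGALS8. Libraries were strand-specific, but the strand setting of the counting is not given in the sources used here.

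The ratio of LGALS1 to LGALS3 within a library was 6.07, 4.80 and 2.29 in the control and 1.54, 1.76 and 2.66 in the knockdown, with an overlap between control replicate 3 and knockdown replicate 3 (two-sided exact permutation test, p = 0.2). Control replicate 2 was at 2.44 in place of 4.80 with its FPKM-derived reads, so that it too was below knockdown replicate 3 (two-sided exact permutation test, p = 0.3). Summed over the 7 S100 members, the level was 1982, 1610.0 and 1773 normalized CPM in the control and 1318, 1345 and 1290.0 in the knockdown, and over the 3 galectins 958, 729 and 487 against 413, 399 and 469. Both sums were higher in each control library (two-sided exact permutation test, p = 0.1 each). Each difference of the means came mostly from a single gene, S100A6 (means of 823 and 449.8) and LGALS1 (549.8 and 254). The means of S100A4 were 481.5 and 575, those of LGALS3 126.8 and 129.6 and those of LGALS8 48.0 and 43.6. LGALS1 did not set the galectin sum of control replicate 3 above that of knockdown replicate 3, being at 307.5 and 316 there. LGALS3 was at 134.5 and 118.8 in these libraries, and LGALS8 at 44.8 and 33.8. With the FPKM-derived reads control replicate 2 had a galectin sum of 506 in place of 729, still above each knockdown library.

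Per length, as normalized CPM per kilobase of the gene length behind the authors' FPKM, the control order was S100A6 (1470.0 ± 172), LGALS1 (1250.0 ± 531), S100A4 (811 ± 213), S100A11 (277 ± 31.7), S100P (164 ± 41.4), S100A14 (161 ± 106), LGALS3 (152 ± 9.79), S100A2 (61.8 ± 15.1), LGALS8 (29.0 ± 4.26) and S100A13 (12.2 ± 7.34; SD, n = 3 each). In this order S100A6, LGALS1 and S100A4 overlapped with their neighbours, as did S100P, S100A14 and LGALS3. In the knockdown S100A4 came first (968 ± 85.3), followed by S100A6 (803 ± 126) and LGALS1 (576 ± 124), and S100A4 and S100A6 overlapped, as did S100A6 and LGALS1 (SD, n = 3 each). S100A11 (204 ± 57.2), LGALS3 (155 ± 12.6) and S100P (89.0 ± 63.4) came next. S100A13 was the last in both groups. With the FPKM-derived reads of control replicate 2, S100A14 (112) and LGALS3 (158) changed places in the control order.

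**Figure D3:**
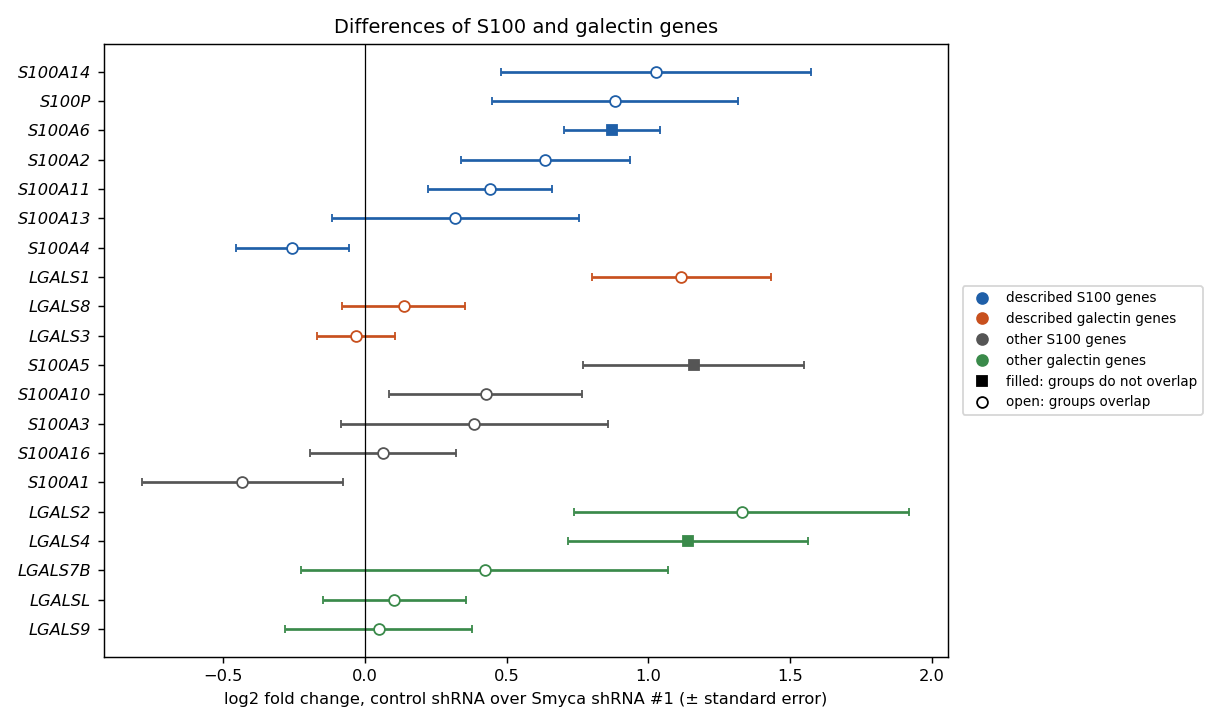
Log2 fold change, control shRNA over Smyca shRNA #1, with its standard error (x axis) for the 10 described genes and the 10 other S100 and galectin genes that passed the count filter; filled squares mark genes whose groups do not overlap. S100A6, S100A5 and LGALS4 are the filled ones, all with higher control levels, and no gene reached an edgeR adjusted p under 0.05.

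The rest of the 2 families held 26 genes, of which 5 S100 genes and 5 galectin genes were tested. The other 16 reached no more than 13 counts per library, and 9 of them were at 0 in each, which allows up to 3 counts or 0.182 to 0.2 CPM by counting error alone. S100A8 and S100A12, known from myeloid cells, and S100A7A, known from keratinocytes, were among those at 0. Of the 10 tested, 0 were DEGs with edgeR (0.0265% of all genes) or with DESeq2 (6.38% of the genes with an adjusted p there), 2 had an unadjusted p under 0.05 in edgeR (19.2% of all genes), 9 were higher in the control (53.4% of all genes), and their median log2 fold change was 0.40 (0.036 over all genes). For S100A10, the partner of annexin A2, the log2 fold change was 0.43 (SE 0.34), and for S100A16 it was 0.064 (SE 0.26), both with overlapping libraries. S100A5 was at 3.39, 2.71 and 2.43 normalized CPM in the control and at 0.762, 1.27 and 1.78 in the knockdown (log2 fold change 1.16, edgeR adjusted p = 0.171). LGALS4, a galectin of the intestinal epithelium, was at 1.05, 1.17 and 1.35 against 0.698, 0.570 and 0.330 (log2 fold change 1.14, edgeR adjusted p = 0.20). Both rest on at most 55 and 21 counts per library. Log2 fold changes were 1.33 (SE 0.59) for LGALS2, 0.42 for LGALS7B, 0.10 for LGALSL, 0.048 for LGALS9, 0.39 for S100A3 and -0.43 for S100A1, each with overlapping libraries. Without control replicate 3, S100A3 was a DEG with a log2 fold change of 0.80. With the FPKM-derived reads of control replicate 2 the sign turned for S100A3 (-0.14), S100A16 (-0.16), LGALS7B (-0.30), LGALS9 (-0.066) and LGALSL (-0.0067), and S100A10 was at 0.17. LGALS7B is nearly identical to LGALS7, and LGALS9 has close copies, so that reads could have been split between them.

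The S100A genes lie together on the long arm of chromosome 1, where genes next to each other had unlike log2 fold changes, whose differences from each other were not tested. In GRCh38, S100A6 (chromosome 1, 153534599 to 153536244, minus strand) and S100A4 (153543613 to 153550136, minus strand) are 7368 bases apart, with S100A5 between them. S100A6 and S100A5 had log2 fold changes of 0.87 and 1.16, S100A4 one of -0.26, and S100A3, which lies inside the span of S100A4, one of 0.39 (-0.14 with the FPKM-derived reads of control replicate 2). Further along, S100A2 (153561108 to 153567890) was at 0.64, S100A16 at 0.064, S100A14 (153614255 to 153616986) at 1.03 and S100A13 (153618787 to 153631360) at 0.32. Of the 16 S100A genes of this region, 11 were tested. S100A9, S100A12, S100A8, S100A7A and S100A7, which stand in a row on the other side of S100A6, reached no more than 2 counts per library.

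**Figure D4:**
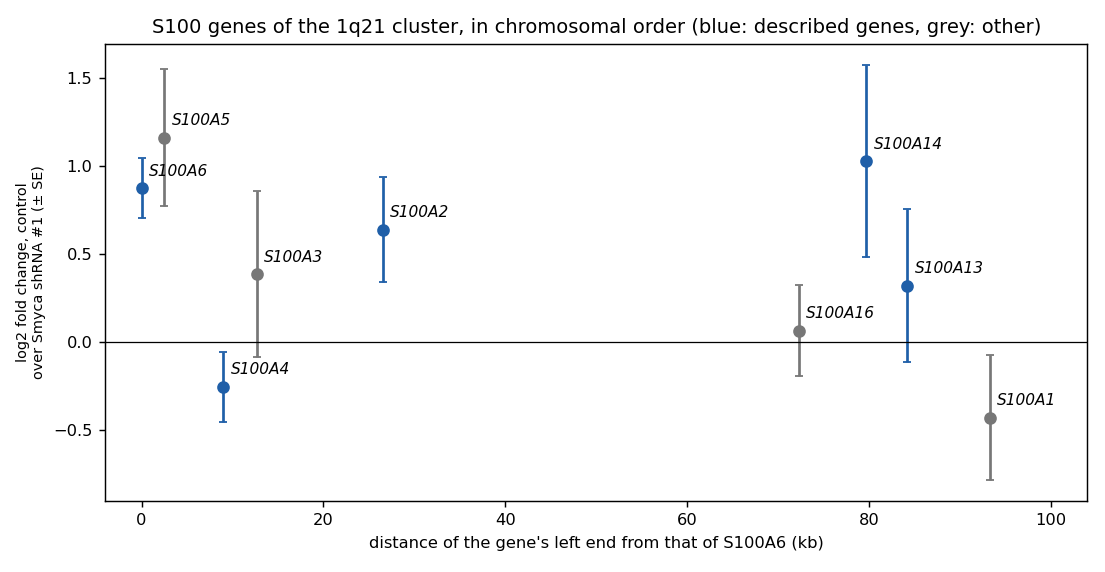
Log2 fold change with its standard error (y axis) against the distance of each tested gene's left end from that of S100A6 in kb (x axis), for the 9 tested S100A genes from S100A6 onwards (S100A10 and S100A11 lie outside the plot). S100A6 and S100A5 lie at 0.87 and 1.16, S100A4 at -0.26, S100A16 at 0.064 and S100A14 at 1.03.

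Receptors, ligands and binding partners of the 2 families were taken as a list of 24 genes, of which 21 were tested. TLR4, FGF1 and IL1A were left out for low counts, at most 18 in any library. With edgeR 0 of the 21 were DEGs (0.0265% of all genes), with DESeq2 4 were (6.38% of the genes with an adjusted p there), and 10 had an unadjusted p under 0.05 in edgeR (19.2% of all genes), 6 of them higher and 4 lower in the control. The median log2 fold change of the 21 genes was -0.060 (0.036 over all genes). With each library left out in turn, 5 to 11 had an unadjusted p under 0.05 in edgeR. The 5 were without control replicate 1 (1730 over all genes), and the 11 without control replicate 3 (4575 over all genes). ANXA1, AGER, MCAM and TFRC were the 4 that DESeq2 called, and these and CALCOCO2 were DEGs in edgeR without control replicate 3 (10.5% of all genes), with log2 fold changes of 1.68, 0.93, 1.07, -0.76 and 0.79.

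ANXA1, whose product annexin A1 is bound by S100A11, had the smallest p of the list. It was at 99.1, 72.8 and 55.6 normalized CPM in the control and at 21.7, 26.1 and 32.1 in the knockdown, a log2 fold change of 1.51 (SE 0.24, edgeR adjusted p = 0.111). AGER, which encodes RAGE, the receptor of S100P and other S100 proteins, was at 10.3, 8.55 and 9.16 against 4.45, 4.88 and 5.41 normalized CPM (log2 fold change 0.93, SE 0.23, edgeR adjusted p = 0.124). In both genes each control library was above each knockdown library. CACYBP, the S100A6-binding protein, lay the other way, at 136.9, 147.1 and 141.1 in the control and 190.5, 215.9 and 189.0 normalized CPM in the knockdown (log2 fold change -0.49, SE 0.13, edgeR adjusted p = 0.132). It shares exonic bases with MRPS14 on the opposite strand, which had 438 to 613 counts per library against 2204 to 3408 of CACYBP. ANXA2, EZR and MYH9, partners of S100A10, S100P and S100A4, had log2 fold changes of 0.31, 0.17 and -0.12, each within overlapping libraries, and of 0.15, 0.10 and -0.38 with the FPKM-derived reads of control replicate 2.

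On the galectin side, MCAM, a surface glycoprotein bound by galectins, was at 57.0, 67.6 and 53.5 normalized CPM in the control and at 22.0, 27.1 and 39.7 in the knockdown (log2 fold change 1.00, SE 0.23, edgeR adjusted p = 0.114). Exons of CBL, with 751 to 2358 counts per library against 347 to 1099 of MCAM, overlap it on the opposite strand. The transferrin receptor gene TFRC was at 303.5, 367 and 295 in the control and at 457, 584 and 655 normalized CPM in the knockdown (log2 fold change -0.81, SE 0.18, edgeR adjusted p = 0.112). LAMP1, a lysosomal glycoprotein bound by galectin-3, was also lower in each control library, with a log2 fold change of -0.39 (SE 0.14, edgeR adjusted p = 0.182). The groups did not overlap in these 3 genes. In LGALS3BP, the gene of the secreted galectin-3-binding protein, the log2 fold change was -0.15 (SE 0.19). For CALCOCO2, the autophagy receptor that galectin-8 recruits, it was 0.60 (SE 0.24), with overlapping libraries. With the FPKM-derived reads of control replicate 2 these were -0.043 and 0.42.

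**Figure D5:**
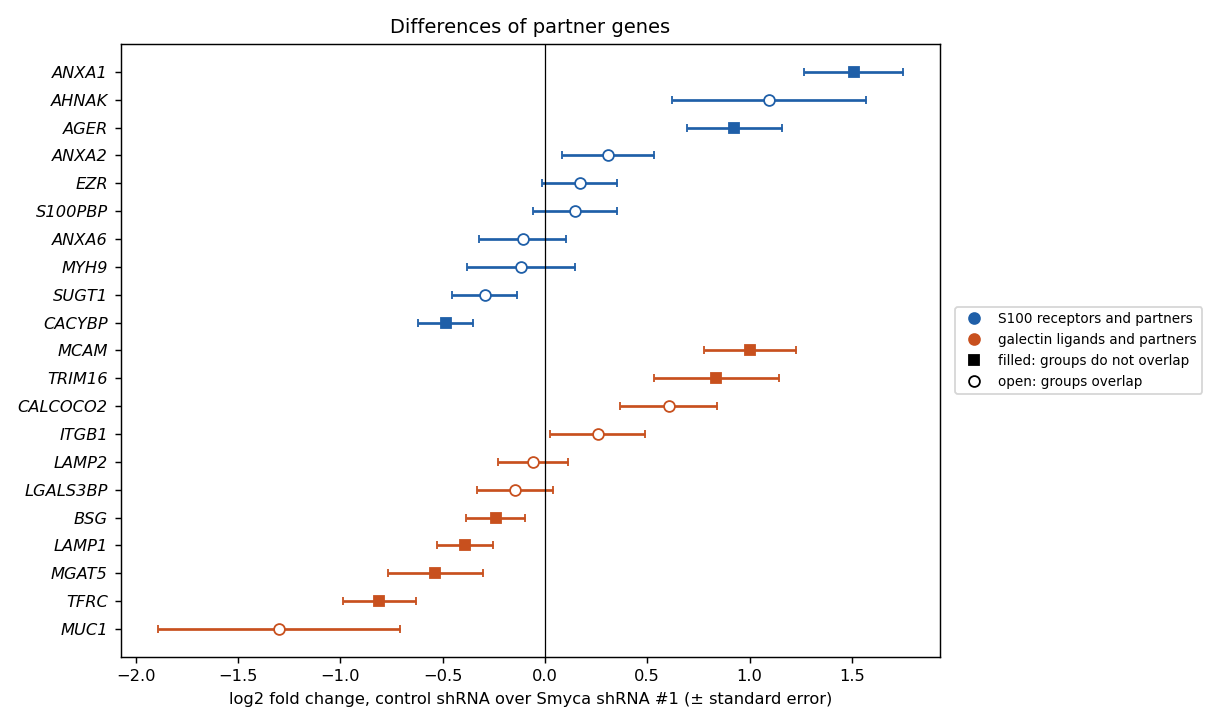
Log2 fold change, control shRNA over Smyca shRNA #1, with its standard error (x axis) for the 21 tested partner genes; filled squares mark genes whose groups do not overlap. Among the filled ones, ANXA1 (1.51), MCAM (1.00) and AGER (0.93) lie on the side of higher control levels, and TFRC (-0.81), MGAT5 (-0.54) and CACYBP (-0.49) on the other. AHNAK (1.095) and MUC1 (-1.30), 1 on each side, have overlapping groups.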

How the data were processed

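RNA-seq data of 6 MDA-MB-231 libraries were analysed, 3 per group. Per the methods and the submitters' processing notes, rRNA was removed, strand-specific libraries were sequenced as paired ends, and reads were mapped to GRCh38 (hg38) with TopHat2 2.0.12 and reads per gene counted with HTSeq. Deposited by the authors per library were raw counts of 58302 Ensembl genes and an FPKM value per gene. Counts were used in each test. The deposited FPKM values served to derive gene lengths and to check the files, and gave whole reads (FPKM-derived reads) for control replicate 2, where 100% of values under 100 reads were whole within 0.05 reads. Annotation release and strand setting are not given in the sources used here.

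Symbols from GENCODE release 44 matched 57532 identifiers. Counts were fitted in R 4.3.3 with edgeR 4.0.16 (TMM, filterByExpr, quasi-likelihood test, no covariate), with Benjamini-Hochberg adjustment over 15075 genes. Normalized CPM are counts scaled by TMM library sizes. The standard error is the log2 fold change divided by the square root of the F statistic. The study's DESeq was replaced by edgeR, with DESeq2 1.42.0 as an alternative. The other alternatives were RLE factors, total counts, no filter beyond 1 count, 10 counts in every library, the replicate number as a block, each library left out, and the FPKM-derived reads of control replicate 2. P-values set the difference between the groups against the spread between these libraries. The biological coefficient of variation common to all genes was 25.2%. The fit was tested on simulated counts.

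The members, gene lists and tests were chosen with earlier results of these data known. Named were the 10 genes, the other tested genes of both families, the 6 partners with the smallest p under 0.05, Smyca and cell markers. MYH9, EZR, ANXA2, LGALS3BP, CALCOCO2 and MGAT5 were added for their roles after their values were seen. AHNAK and MUC1 were added for the size of their log2 fold changes. The summed level of the intestinal and hepatic markers is not reported here.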

Additional observations from a re-analysis of the deposited data

How the results depend on the processing

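S100A6, LGALS1, S100A2, S100A4, S100A11, S100A14 and S100P kept their direction in all 13 alternatives. Of 130 values (10 genes under 13 alternatives), 117 kept direction and side of the threshold, 7 became DEGs (S100A6 and LGALS1 3 times each, S100A14 once) and 6 changed sign. LGALS3 was at 0.037 with total counts only and at 0.020 with the FPKM-derived reads of control replicate 2. With each library left out in turn, its log2 fold change lay between -0.099 and 0.020, that of LGALS8 between -0.027 and 0.37 (negative without knockdown replicate 3) and that of S100A13 between -0.23 and 0.66 (negative without control replicate 1). In place of 0, the DEGs among the 10 genes numbered 2 without the low-count filter, 2 with DESeq2, and 0 to 3 with each library left out, the 3 (S100A6, LGALS1 and S100A14) without control replicate 3. Among partner genes the numbers were 5, 4 and 0 to 5, and among the other S100 and galectin genes 0 to 1 (S100A3, without control replicate 3). Over all genes, 4 were DEGs, against 8 with total counts, 916 without the filter, 850 with DESeq2, 10 with the FPKM-derived reads, 0 with the replicate block, and 0 to 1628 with each library left out (1628 without control replicate 3, 0 without control replicate 1 and without knockdown replicates 1 and 2, and 2 without control replicate 2 and without knockdown replicate 3). Where that number was 0, 1687 to 2568 genes had an unadjusted p under 0.05. The cause of these changes was not tested.

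The repeat numbers are shared between the groups by label only. Deviations from the group means correlated at 0.061, 0.084 and -0.014 for libraries with the same number, and at -0.18 to 0.080 for the others. With the replicate block, 0 of the 10 genes were DEGs and 4 had an unadjusted p under 0.05 (17% of all genes in that fit), and S100A6 and LGALS1 had log2 fold changes of 0.88 and 1.05 (edgeR adjusted p = 0.176 and 0.248). With 3 libraries a group the exact permutation test cannot pass 0.05, and genes with few counts such as LGALS4 (5 to 21 per library) are measured coarsely.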

Other observations

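An antisense lncRNA gene, ENSG00000238279, shares exonic bases with S100A6 on the opposite strand and was looked up after the values of S100A6 had been seen. It had 20, 16 and 28 counts in control replicates 1 to 3 and 9, 5 and 6 counts in the knockdown replicates, against 5970 to 14959 counts of S100A6 per library. Without the strand setting of the counting, reads of the 2 genes cannot be told apart.

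By the count column, control replicate 3 was the lowest of the 6 libraries for S100A14, S100A13, S100A3, S100A16 and LGALS7B. S100A4, however, was at 627 normalized CPM there, next to 631.5 as the highest. With its FPKM-derived reads, control replicate 2 was low too. It was then at 41.5, 5.61, 13.8, 249 and 1.45 normalized CPM for S100A14, S100A13, S100A3, S100A16 and LGALS7B. Control replicate 3 was at 39.2, 4.74, 11.6, 242 and 0.96 by its counts. For HNF4A, given by the count column only, control replicate 3 was at 65.4 normalized CPM and the other 5 libraries at 167.8 to 194.1. The part of the state of control replicate 3 in the S100 values was not tested.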
